A study of Mus musculus with 2 samples.

Results

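Thyrotropin-releasing hormone (TRH) cells were picked from a single-cell survey of newborn mouse hypothalamus as the cells with at least 300 detected genes, at least 2 Trh UMIs and fewer than 2 Crh UMIs. A UMI, a unique molecular identifier, stands for 1 captured mRNA molecule. The rule took 113 of 5260 cells, 67 of 2806 in the control library and 46 of 2454 in the Sim1 heterozygous library. The cells were sorted as tdTomato+ and Sytox blue-negative from the hypothalami of CD-1 pups at postnatal day 1 to 4, and Drop-seq libraries were made from the 3' ends of their mRNA. Control pups were Sim1-Cre;tdTomato+/- (the Ai14 reporter), and the other pups carried 1 mutant Sim1 allele besides and were Sim1-Cre;tdTomato+/-;Sim1+/-. Each genotype was a single pool of 6 pups and 1 library by the sample text, while a protocol text gives a range that ends at 6. The labels do not state the sex of the pups. Because Sim1-Cre drives the label in both genotypes, only cells with a history of Sim1 expression, or cells carried along in the sort, were sampled. The study asked how losing 1 copy of Sim1 alters these hypothalamic neurons.

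TRH is a tripeptide cut from a larger precursor. Neurons of the paraventricular nucleus release it at the median eminence, where it drives thyrotropin secretion from the pituitary, and thyroid hormone in turn represses the Trh gene. Other hypothalamic TRH neurons act within the brain on arousal, body temperature and feeding. Sim1 and Otp are transcription factors that neuroendocrine neurons of the paraventricular nucleus need in order to develop.

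Neither genotype has a replicate library, so no p-value is given and every difference between the libraries compares 2 pools of pups, not 2 genotypes. Levels are counts per 1000000 UMIs (CPM), from UMIs summed over cells. Ratios are log2 values after 1 UMI was added to each sum. The 95% intervals cover counting error only, and they are too narrow because the UMIs of a cell are not independent. Since the rule used Trh counts, the comparisons of TRH cells with the other 2739 control and 2408 heterozygous cells are descriptions.

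Trh lies on chromosome 6 (mm10, chr6:92242061-92244650, minus strand). The RefSeq promoter table (GRCm38.p6) gives the 250 bases before its start site, chr6:92244651-92244900 on the minus strand, shown because this is the gene that defines the cells. Capitals mark the match to TGACCTCA, which holds the TGACCT sequence that thyroid hormone receptors bind and resembles the cyclic AMP response element TGACGTCA.
Trh promoter: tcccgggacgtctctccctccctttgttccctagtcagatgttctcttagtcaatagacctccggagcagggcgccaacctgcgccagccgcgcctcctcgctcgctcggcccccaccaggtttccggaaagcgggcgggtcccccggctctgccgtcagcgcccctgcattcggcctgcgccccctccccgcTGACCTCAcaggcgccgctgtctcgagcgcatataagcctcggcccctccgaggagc
The match spans bases -57 to -50 from the start site. On either strand, TGACCTCA occurred in 636 of 32851 promoter windows of the same length (1.94%), TGACGTCA in 508 (1.55%) and TATAAA in 4063 (12.4%). The Trh window held neither TGACGTCA nor TATAAA. These matches describe letters only, and no binding was measured in these data.

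TRH cells were deep for their libraries. Their median was 2997 UMIs in the control and 2984.5 in the heterozygous library, against 1758 and 1549.5 in the other cells. The shallowest TRH cell had 968 UMIs in the control and 700 in the heterozygous library. To compare shares of cells at equal depth, each cell was thinned to 1000 UMIs, which left 65 and 44 TRH cells and 2377 and 1660 other cells. The libraries held 6525080 and 5397693 UMIs in 2807 and 2476 barcodes and shared no barcode. Mitochondrial transcripts made up at most 2.23% of the UMIs of a TRH cell in the control and 1.45% in the heterozygous library.

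The rule fixes a high Trh level in TRH cells, and these are the values it selected. Control TRH cells held 425 Trh UMIs, a level of 2018 CPM (interval 1831 to 2219), and heterozygous TRH cells held 236, a level of 1256 CPM (1101 to 1427). The other cells stood at 11.6 and 12.1 CPM. TRH cells carried 85.3% of all Trh UMIs in the control library and 78.9% in the heterozygous library. The median TRH cell had 3 Trh UMIs in the control and 4 in the heterozygous library, and the highest cells had 42 and 35. In the control library 9 cells with 10 or more UMIs held 54.1% of the Trh UMIs of TRH cells, and in the heterozygous library 4 such cells held 32.6%. After thinning to 1000 UMIs, 56 of 65 control and 33 of 44 heterozygous TRH cells still showed Trh, a share that the rule sets in part.

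**Figure D1:**
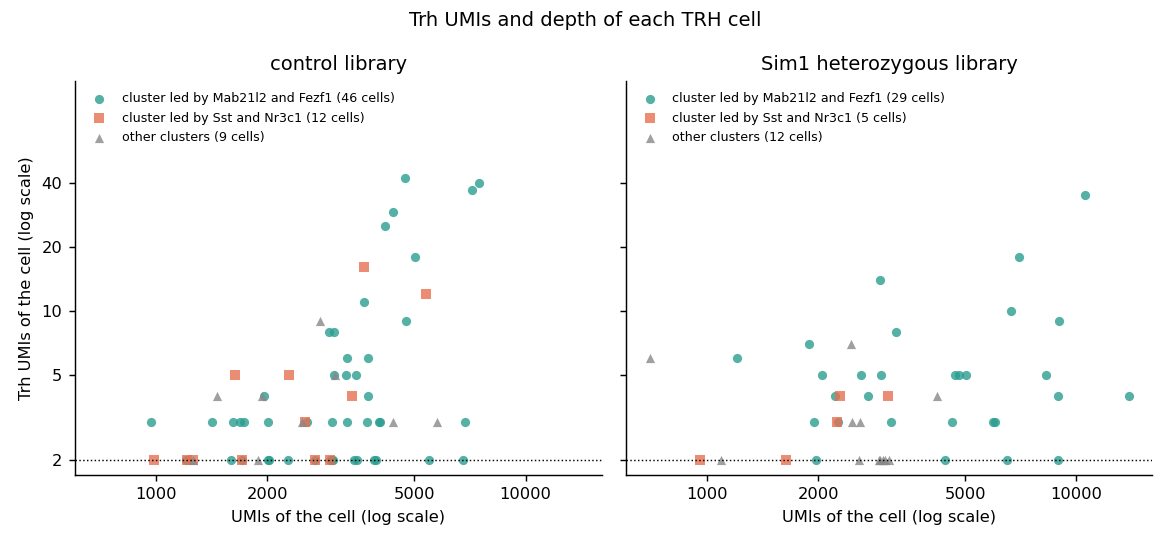
Trh UMIs (vertical, log scale) against all UMIs (horizontal, log scale) of each of the 113 TRH cells, by library; colour and shape give the cluster and the dotted line the rule's limit of 2 Trh UMIs. Most cells sit at 2 to 9 Trh UMIs over a wide range of depth, and 9 control and 4 heterozygous cells reach 10 or more.

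At the limit of the rule, 24 control and 13 heterozygous TRH cells had exactly 2 Trh UMIs, and 73 and 63 other cells had exactly 1. For Otp, cells with 1 Trh UMI lay between cells with 2 and cells with 0. In the control library they stood at 606 CPM, against 900.1 with 2 and 322 with 0. The corresponding Otp levels in the heterozygous library were 499, 626 and 188 CPM. Otp in cells with 10 or more stood at 526 CPM in the control and 920 in the heterozygous library. Zic4, Cbln2 and Fezf1 were likewise intermediate in both libraries, and Cbln1 and Ghrh in the control library only. Control Zic1 was not, at 351 CPM with 1 Trh UMI and 347 with 2, nor was control Car10, at 346 and 316. The Crh limit removed no cell: 43 control and 41 heterozygous cells had 2 or more Crh UMIs, none of them had 2 Trh UMIs, and no TRH cell held a Crh UMI. Crh encodes corticotropin-releasing hormone, the peptide of the neighbouring stress neurons. Trh was also detected in 1 of 53 control and 0 of 54 heterozygous cells of the astrocyte or radial glia-like cluster, whose median depths were 1350 and 866 UMIs. A count of 0 there allows a share of up to 5.56% with a captured Trh UMI at that depth. It does not bound the share of cells that express Trh.

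**Figure D2:**
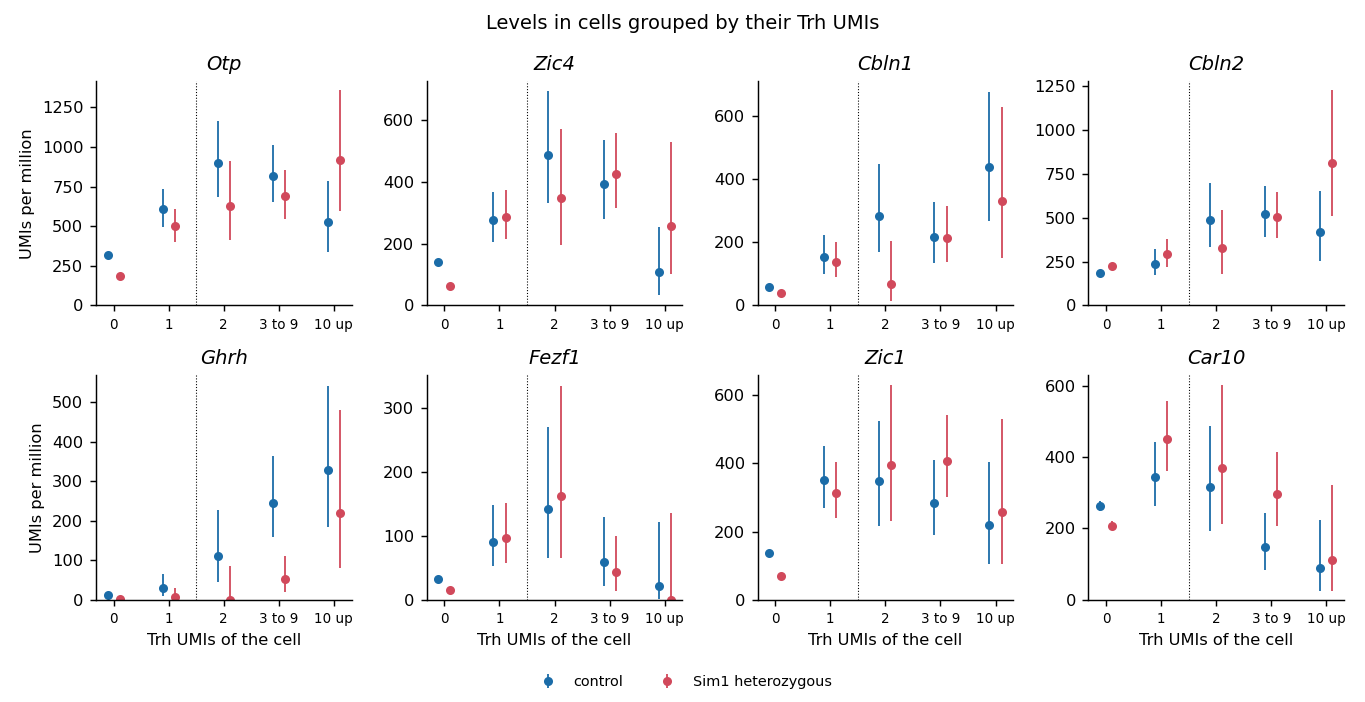
Levels of 8 genes (vertical, UMIs per 1000000 UMIs, exact Poisson 95% intervals for counting error) in cells grouped by their own Trh UMIs (horizontal), for the control and heterozygous libraries; cells right of the dotted line are TRH cells. Otp, Cbln1 and Ghrh are higher right of the line than at 0 Trh UMIs in the control library, and Car10 stands at 316 CPM at 2 Trh UMIs and 87.7 at 10 or more.

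The cells were neurons by their marker genes. Of 10 pan-neuronal genes the median TRH cell showed 8 in each library and no TRH cell showed fewer than 4. Slc17a6, the vesicular glutamate transporter of most excitatory hypothalamic neurons, was detected in 46 of 67 control and 37 of 46 heterozygous TRH cells. Its level was 522 against 609 CPM in other control cells and 671 against 787 in the heterozygous library, log2 ratios of -0.21 and -0.22. A GABA-synthesis or transport gene (Gad1, Gad2 or Slc32a1) appeared in 5 control and 8 heterozygous TRH cells, of which 4 and 6 also showed Slc17a6. The summed microglia, fibroblast and erythroid lists stood at 0 UMIs in TRH cells of both libraries. Endothelial or mural markers gave 1 UMI in each library. Oligodendrocyte markers gave 9 and 8 UMIs, and astrocyte or radial glia markers gave 40 and 35 UMIs (190 and 186 CPM against 604 and 794 in other cells).

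The label names Trh, Otp, Fezf1, Zic1, Cbln1 and Car10 as markers. Otp, Fezf1, Zic1 and Cbln1 were at least 2-fold higher in TRH cells than in other cells of both libraries, but Car10 was not. Across all 7603 genes with at least 100 UMIs in each library (Trh and Crh left out), 214 genes (2.81%) were at least 2-fold higher in the control library and 273 (3.59%) in the heterozygous library. In both libraries at once 36 genes (0.473%) were higher. At least 2-fold lower were 339 genes (4.46%) in the control and 408 (5.37%) in the heterozygous library, and 99 (1.3%) in both. The median log2 ratio over all 7603 genes was 0.09 in each library.

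Otp, the homeodomain factor of neuroendocrine lineages (chr13:94875602-94885130, plus strand), was the most widely detected of the label's genes besides Trh. It gave 164 UMIs in 57 of 67 control TRH cells (779 CPM against 335) and 133 UMIs in 35 of 46 heterozygous ones (708 CPM against 207). The log2 ratios were 1.23 (interval 0.98 to 1.45) and 1.79 (1.51 to 2.04). At equal depth Otp was found in 52.3% of TRH cells and 20.5% of other cells in the control library, and in 43.2% and 12.6% in the heterozygous library. In the glia-like cluster 4 of 53 control and 1 of 54 heterozygous cells had an Otp UMI. Detection in TRH cells exceeded that background, but the glia-like cells were shallower and the part of depth was not tested.

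Zic1 and Zic4, zinc finger factors of midline and dorsal neural tissue, sit next to each other on opposite strands (Zic1 chr9:91358058-91365810 minus, Zic4 chr9:91362413-91389348 plus). Their annotated spans overlap, and the labels do not state whether reads were counted by strand. Zic4 gave 76 UMIs in control TRH cells (361 CPM against 141) and 72 in heterozygous TRH cells (383 against 71.5), log2 ratios of 1.37 and 2.44. Zic1 gave 61 UMIs (290 CPM against 140) and 72 (383 against 77.5), log2 ratios of 1.07 and 2.32. The other cells held lower Zic1 and Zic4 in the heterozygous library. A cluster led by Mab21l2, Fezf1 and Zic genes, described further on, took 315 of 2739 control and 120 of 2408 heterozygous other cells. What part this has in the lower levels was not tested. The other cells inside that cluster held Zic1 at 549.9 and 616 CPM and Zic4 at 559 and 547 CPM. At least 1 of the 5 Zic genes was detected in 32 control and 23 heterozygous TRH cells. Among other cells it was 502 of 2739 control and 236 of 2408 heterozygous cells. Zic UMIs also appeared in the glia-like cluster of the control library, Zic1 in 10 of 53 cells (18.9%) against 27 of 67 TRH cells (40.3%). The glia-like cells were shallower, at a median of 1350 UMIs against 2997, and the part of depth was not tested.

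Fezf1, a zinc finger factor of the developing hypothalamus and olfactory system (chr6:23245044-23248362, minus strand), rested on few molecules. It had 16 UMIs in 8 control TRH cells and 12 UMIs in 7 heterozygous ones, log2 ratios of 1.27 (0.35 to 1.92) and 1.97 (0.86 to 2.74). No glia-like cell of either library held a Fezf1 UMI. Cells with exactly 2 Trh UMIs gave 9 of the 16 control and 7 of the 12 heterozygous Fezf1 UMIs, and cells with 10 or more gave 1 and 0.

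Car10 went against the label. It encodes a carbonic anhydrase-related protein that binds neurexins. Control TRH cells held 39 Car10 UMIs in 19 cells, 185 CPM against 266 in other cells, and heterozygous TRH cells held 54 in 23 cells, 287 against 216. The log2 ratios were -0.49 (-1.02 to -0.07) and 0.43 (-0.01 to 0.80), of opposite sign. Within the cluster that held most TRH cells, Car10 was lower in TRH cells than in their neighbours in both libraries, at log2 -1.29 and -1.21.

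Single cells rarely carried the whole marker set. At least 1 of Otp, Fezf1, Zic1, Cbln1 and Car10 was seen in 63 of 67 control and 43 of 46 heterozygous TRH cells, and at least 2 in 44 and 30. None was seen in 4 and 3 cells. Among other cells 1443 of 2739 control and 905 of 2408 heterozygous cells had at least 1. All 22 control TRH cells with Sim1 also had Otp, as did 15 of the 18 heterozygous ones. Of all TRH cells 57 of 67 control and 35 of 46 heterozygous ones had Otp. Cbln1 was found in 14 of the 27 control and 8 of the 22 heterozygous TRH cells that had Zic1. Of all TRH cells 29 of 67 and 17 of 46 had Cbln1.

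Sim1, the bHLH-PAS factor whose driver labelled the cells (chr10:50894754-50989152, plus strand), was present at a low level. It had 38 UMIs in 22 control TRH cells (180 CPM against 110 in other cells) and 26 UMIs in 18 heterozygous TRH cells (138 against 90.0). The log2 ratios to other cells were 0.75 (0.20 to 1.19) and 0.67 (-0.01 to 1.19). Between the libraries the Sim1 ratio, heterozygous over control, was -0.37 (-1.16 to 0.37) in TRH cells and -0.29 in other cells. The labels do not state which part of Sim1 the mutant allele lacks, so these 3' end counts are no check of the genotype.

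Of 18 transcription factors and related genes of the paraventricular nucleus, 17 had a row, 11 were tested and only Otp was at least 2-fold higher in both libraries (0.473% of all genes were). Pou3f3, a POU factor, was the 1 member lower in both: it gave 0 UMIs in control TRH cells, at least 5.60-fold lower than in other cells, and 1 in heterozygous TRH cells. Pou3f2, a POU factor needed by Crh and other neuroendocrine neurons, gave log2 ratios of -0.03 and 1.06. Uncx gave -0.03 and -0.41, and Arnt2, the partner of Sim1, gave -0.32 and 0.40. The list's medians were -0.03 and -0.21, beside 0.09 for all genes. Among 11 tested region factors of the Zic and Fezf list, Zic1, Zic4 and Fezf1 were higher in both libraries. Nkx2-1 (2 and 3 UMIs, log2 -2.20, -5.83 to -0.92, and -2.32, -5.02 to -1.18) and Nkx2-4 (0 UMIs in TRH cells of either library, at least 2.90-fold and 3.15-fold lower) were lower in both. Nkx2-1 and Nkx2-4 are homeodomain factors of the ventral hypothalamus.

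**Figure D3:**
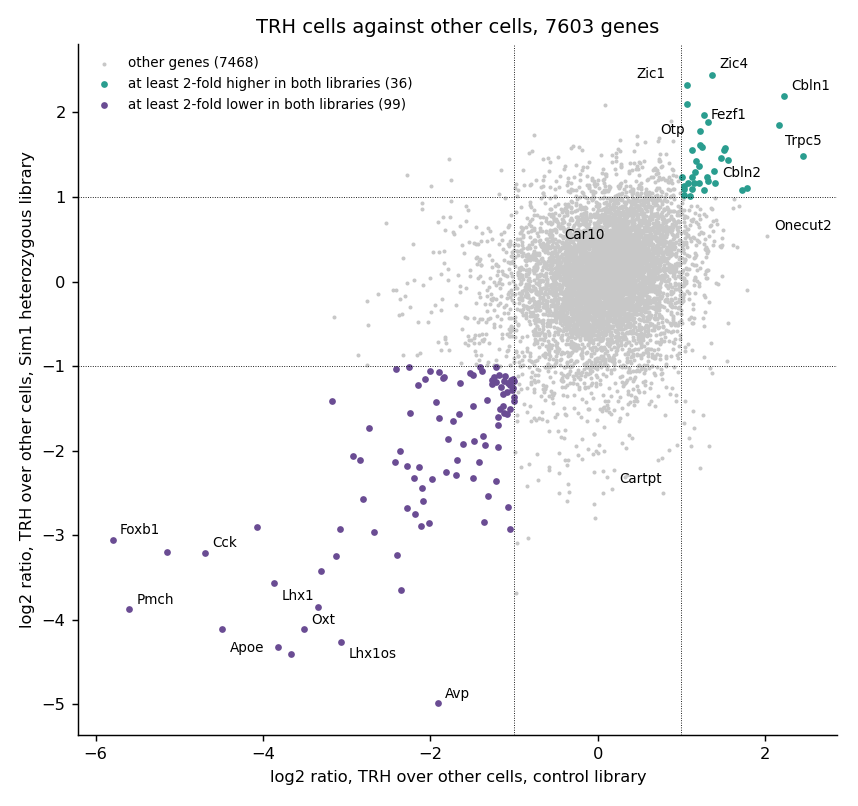
Log2 ratio of TRH over other cells in the control library (horizontal) and the heterozygous library (vertical), 1 point per gene for 7603 genes, 1 UMI added to each sum; dotted lines mark 2-fold. The 36 genes at top right, led by Cbln1, Zic4 and Otp, were higher in both libraries, the 99 at bottom left, with Pmch, Foxb1, Cck and Avp, were lower, and Car10 lies near the centre.

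Cerebellin genes stood higher in TRH cells than in other cells. Cbln1 (chr8:87468405-87472609, minus strand) encodes a secreted protein that bridges presynaptic neurexins and postsynaptic delta glutamate receptors. It gave 60 UMIs in 29 control TRH cells (285 CPM against 61.5) and 37 in 17 heterozygous ones (197 against 43.8). The log2 ratios were 2.23 (1.80 to 2.61) and 2.20 (1.63 to 2.67), nearly the same in the 2 libraries. At equal depth Cbln1 was found in 20% of TRH cells and 5.05% of other cells in the control library, and in 22.7% and 3.37% in the heterozygous library. The glia-like cluster had a Cbln1 UMI in 1 of 53 and 0 of 54 cells. The non-coding gene Gm2694 overlaps Cbln1 on the opposite strand and was higher alongside it (log2 2.17 and 1.85), and reads of the 2 genes cannot be told apart if strand was not used.

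Cbln2, a second cerebellin, gave 103 UMIs in 35 control TRH cells (489 CPM against 186) and 95 in 29 heterozygous ones (506 against 227), log2 ratios of 1.40 and 1.17. Cbln1 or Cbln2 was seen in 46 of 67 control and 33 of 46 heterozygous TRH cells. Grid1, which encodes a delta glutamate receptor that binds cerebellins, was also at least 2-fold higher in both libraries, from only 10 and 13 UMIs (log2 1.13 and 1.24). Of 24 tested neurexins and their ligands, these 3 were higher in both libraries, and Nxph1 (2 and 0 UMIs) and Clstn2 (2 and 4 UMIs) were lower in both, beside 0.473% and 1.3% of all genes. The list's medians were 0.07 and 0.11.

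Other genes higher in both libraries ranged over receptors, channels and signalling. Gria3, an AMPA receptor subunit, had log2 ratios of 1.56 and 1.44 from 46 and 37 UMIs. Irs4, an insulin receptor substrate, had 1.51 and 1.55 from 19 and 21 UMIs. Trpc5, a receptor-operated cation channel, had 2.45 and 1.48 from 22 and 10 UMIs. Gabrg3, a GABA-A receptor subunit, had 1.08 and 1.16. Among nuclear proteins, Lmo3, a LIM-only cofactor, had 1.22 and 1.61, Hdac7, a histone deacetylase, had 1.17 and 1.29, Tcea2, an elongation factor, had 1.52 and 1.57, and Cxxc5 had 1.13 and 1.09.

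The remaining genes of the ranked 20 were as follows. Qdpr, which recycles the tetrahydrobiopterin cofactor, had log2 ratios of 1.47 and 1.46. Dgkk, a diacylglycerol kinase, had 1.31 and 1.19. Pcdh11x, an X-linked protocadherin, had 1.39 and 1.31. Ap3b1, a vesicle adaptor subunit, had 1.13 and 1.55, and Rwdd2a had 1.21 and 1.37. These 5 genes gave 20 to 29 UMIs in control TRH cells and 15 to 36 in heterozygous TRH cells. Prlr, the prolactin receptor (12 and 11 UMIs, log2 1.32 and 1.88), and Sstr1, a somatostatin receptor (13 and 8 UMIs, 1.72 and 1.08), were also among the 36; they fell outside the ranking and are named after their values were seen.

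By position, 7 of the 36 higher genes lie on the X chromosome (19.4%), among them Gria3, Irs4, Trpc5, Dgkk and Pcdh11x. Of the 7452 tested genes with a position in the annotation, 301 do (4.04%). Only 1 of the 98 placed genes lower in both libraries lies on X (1.02%). The position was noticed after the genes were known, and no test was made of it.

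Among neuropeptides, Ghrh, growth hormone-releasing hormone (chr2:157329497-157347506, minus strand), stood at a higher level in TRH cells than in other cells. More of its control UMIs nevertheless lay outside TRH cells. Control TRH cells held 47 Ghrh UMIs in 17 of 67 cells, 223 CPM, and the other 2739 control cells held 74 UMIs in 31 cells, 11.7 CPM. In the heterozygous library 5 of 46 TRH cells held 12 UMIs, 63.9 CPM, and the other 2408 cells held 11 UMIs in 11 cells, 2.11 CPM. The log2 ratios were 4.26 (3.69 to 4.80) and 4.91 (3.61 to 6.24). Ghrh had fewer than 100 UMIs in the heterozygous library, so it is not among the 36 genes. At equal depth it was found in 16.9% of control TRH cells against 0.631% of other cells, and in 6.82% against 0.241% in the heterozygous library. No glia-like cell held a Ghrh UMI.

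TRH cells with Ghrh mostly carried Otp, in all 17 control and 4 of the 5 heterozygous ones. Cbln2 was found in 10 of the 17 and 4 of the 5, and Zic1 in 6 of the 17 and 1 of the 5. Over all 67 control and 46 heterozygous TRH cells, Otp was found in 57 and 35, Cbln2 in 35 and 29, and Zic1 in 27 and 22. The median Trh count of TRH cells with Ghrh was 4 UMIs in the control and 10 in the heterozygous library. It was 3 in TRH cells without Ghrh of both libraries, at similar median depths (3021 against 2991 UMIs, and 2948 against 3002). Ghrh in control cells outside the TRH set came mainly from another source, a cluster led by Avp and Oxt. There 55 of its 74 UMIs lay in 16 of 108 cells, beside 17 of 67 TRH cells with Ghrh. The 25 heterozygous cells of that cluster held 0 Ghrh UMIs. In the cluster that held most TRH cells, Ghrh gave 44 UMIs in 18 of 75 TRH cells and 10 UMIs in 8 of 435 others. Ghrh was higher where Trh was higher, at 11.5 CPM with 0 Trh UMIs, 28.3 with 1, 111 with 2, 246 with 3 to 9 and 329 with 10 or more in the control library. The heterozygous series was 2.03, 5.31, 0, 51 and 221 CPM.

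Adcyap1, which encodes PACAP, was the 1 tested peptide gene at least 2-fold higher in both libraries, with 25 and 38 UMIs and log2 ratios of 1.15 and 1.17. Of 13 tested peptide genes other than Trh, 7 were at least 2-fold lower in both libraries, beside 1.3% of all genes. They included Avp, Oxt, Pmch, Cck, Sst and Penk. The list's medians were -1.07 and -2.45. Tac1, the substance P precursor, was patchy: 48 UMIs came from 7 control TRH cells, 32 of them from a single cell, and 97 from 8 heterozygous TRH cells, 27 of them from a single cell. Cartpt, the CART precursor, gave 33 UMIs in 10 control TRH cells and 7 UMIs in 2 heterozygous ones.

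Vasopressin needs a separate word. Control TRH cells held 314 Avp UMIs, but 292 came from a single cell with 3 Trh UMIs, 7 Oxt UMIs and 4375 UMIs in all, which lay in the cluster led by Avp and Oxt. The other 66 control TRH cells shared 22 Avp UMIs. Avp was also detected in 11 of 53 control glia-like cells (20.8%), and in 19 of 67 control TRH cells (28.4%) at a greater depth. The growth hormone gene Gh gave 40 UMIs in 27 of 67 control TRH cells (40.3%) and 27 UMIs in 22 of 53 glia-like cells (41.5%), so its share in TRH cells did not exceed the background. The heterozygous library had no Gh UMI in TRH cells or in other cells.

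Of 19 prohormone processing genes, all but Furin gave at least 1 UMI in TRH cells of each library, some of them only a few. Of 16 tested members none was at least 2-fold higher or lower in both libraries, beside 0.473% and 1.3% of all genes. The medians were 0.29 and 0.27, beside 0.09 for all genes. Scg2, secretogranin II, gave 328 and 316 UMIs (log2 0.38 and 0.27), and Pcsk1n, an inhibitor of prohormone convertase 1, gave 291 and 257 (0.19 and 0.37). Pam, the amidating enzyme that finishes the TRH peptide, had 35 and 23 UMIs and log2 ratios of 1.18 and 0.43. Pcsk2, prohormone convertase 2, had 52 and 31 UMIs (0.87 and -0.21), whereas Pcsk1, prohormone convertase 1, had only 4 and 5. Qpct, which forms the pyroglutamyl end of TRH, had 20 and 28 UMIs (0.43 and 0.97), and Vgf, a granin-like precursor, had 22 and 29 (0.90 and 1.26).

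The 11 TRH signalling genes summed to 201 UMIs in control and 183 in heterozygous TRH cells, 954 and 974 CPM against 903 and 961 in other cells. Most came from the signalling genes Gnaq (67 and 55 UMIs) and Plcb4 (67 and 54), which many receptors share. None of the 6 tested members was at least 2-fold higher or lower in both libraries, beside 0.473% and 1.3% of all genes. The medians were 0.07 and 0.08, beside 0.09 for all genes. Trhr, the TRH receptor, had 4 UMIs in control and 7 in heterozygous TRH cells. Trhde, the ectoenzyme that degrades TRH, had 7 and 13 UMIs, log2 ratios of 0.87 (-0.65 to 1.77) and 1.90 (0.85 to 2.64).

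The 17 measured thyroid axis genes gave 218 UMIs in control and 195 in heterozygous TRH cells. Thra, thyroid hormone receptor alpha, was well detected at 88 and 102 UMIs (418 and 543 CPM against 534 and 686 in other cells; log2 -0.34 and -0.32). Thrb, the receptor beta gene, had 1 UMI in the control and 0 in the heterozygous library. None of the 7 tested thyroid axis genes passed 2-fold in both libraries, beside 0.473% of all genes higher and 1.3% lower. Mc4r, the melanocortin receptor, had 3 and 2 UMIs, and Lepr, the leptin receptor, had 0 in TRH cells of either library. The glucocorticoid receptor gene Nr3c1 had 12 and 17 UMIs, log2 ratios of 0.91 and 1.32. None of the 7 tested input genes passed 2-fold in both libraries, beside the same shares of all genes. Of 23 listed input genes, 12 in the control and 9 in the heterozygous library had no UMI in TRH cells.

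The genes most depleted in TRH cells belonged to other neuron groups and to glia. Pmch, melanin-concentrating hormone of the lateral hypothalamus, gave 5 UMIs in control TRH cells (23.7 CPM against 1381) and 4 in heterozygous ones (21.3 against 390), log2 -5.60 and -3.87. It overlaps Parpbp on the opposite strand. The mammillary gene Foxb1 had 1 and 20 UMIs, log2 -5.80 (-12.10 to -4.32) and -3.05 (-3.84 to -2.50), and 6 of the heterozygous cells held the 20. Lhx1, also of the mammillary region, had 3 and 7 UMIs, log2 -3.87 (-6.56 to -2.73) and -3.57 (-5.08 to -2.72). The peptide gene Cck had 3 and 12 UMIs, log2 -4.70 (-7.39 to -3.56) and -3.21 (-4.28 to -2.51). Oxt gave 8 UMIs in control TRH cells, log2 -3.51, and 0 in heterozygous ones, at least 5.75-fold lower than in other cells. Lhx1os, the transcript antisense to Lhx1, gave -3.06 and -4.26, and Avp gave -1.91 and -4.99.

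Apoe and Fabp7, which mark astrocytes and radial glia, had 1 and 1, and 2 and 1, UMIs in TRH cells. Their log2 ratios were -3.82 (-10.12 to -2.33) and -4.32 (-10.62 to -2.83) for Apoe, and -3.34 (-6.97 to -2.06) and -3.85 (-10.16 to -2.37) for Fabp7. Without the glia-like cells among the other cells, Apoe gave 0.21 and Fabp7 gave 0.86 in the control library, and Fabp7 gave 0.02 in the heterozygous library. These rest on 1 UMI in TRH cells against 50 in other cells for Apoe, and 2 against 48 and 1 against 53 for Fabp7. With so few, the 1 UMI added to each sum weighs on the sign, and they do not show a higher level in TRH cells. Mammillary markers as a list gave 129 UMIs in each library, 613 and 687 CPM against 1879 and 3171 in other cells, with 4 of 8 tested members lower in both libraries, beside 1.3% of all genes.

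TRH cells fell into several clusters. Clustering all cells on their expression without Trh and Crh gave 17 clusters. A cluster led by Mab21l2, Fezf1 and Zic genes held 75 of the 113 TRH cells (66.4%, interval 56.9% to 75.0%), 46 of 67 in the control and 29 of 46 in the heterozygous library. A cluster led by Sst, Nr3c1 and Pou3f4 held 17 of them, 12 control and 5 heterozygous. The remaining 9 control and 12 heterozygous TRH cells were spread over 6 other clusters. TRH cells were a minority everywhere: 46 of 361 control and 29 of 149 heterozygous cells of the Mab21l2 cluster, and 12 of 132 and 5 of 101 of the Sst cluster. At a finer clustering the best cluster held 50 of 113 TRH cells (44.2%).

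Membership of the Mab21l2 cluster was more common with more Trh UMIs. It was 10.8% of cells with 0 Trh UMIs, 45.2% with 1, 66.7% with 2, 67.6% with 3 to 9 and 77.8% of the 9 cells with 10 or more. The heterozygous shares were 4.21%, 37.1%, 30.8% of 13 cells, 72.4% and 100% of 4 cells. Median depth was also greater with more Trh UMIs, at 1738 UMIs with 0 and 4721 with 10 or more in the control and 1525 and 6823 in the heterozygous library, and its part in these shares was not tested.

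**Figure D4:**
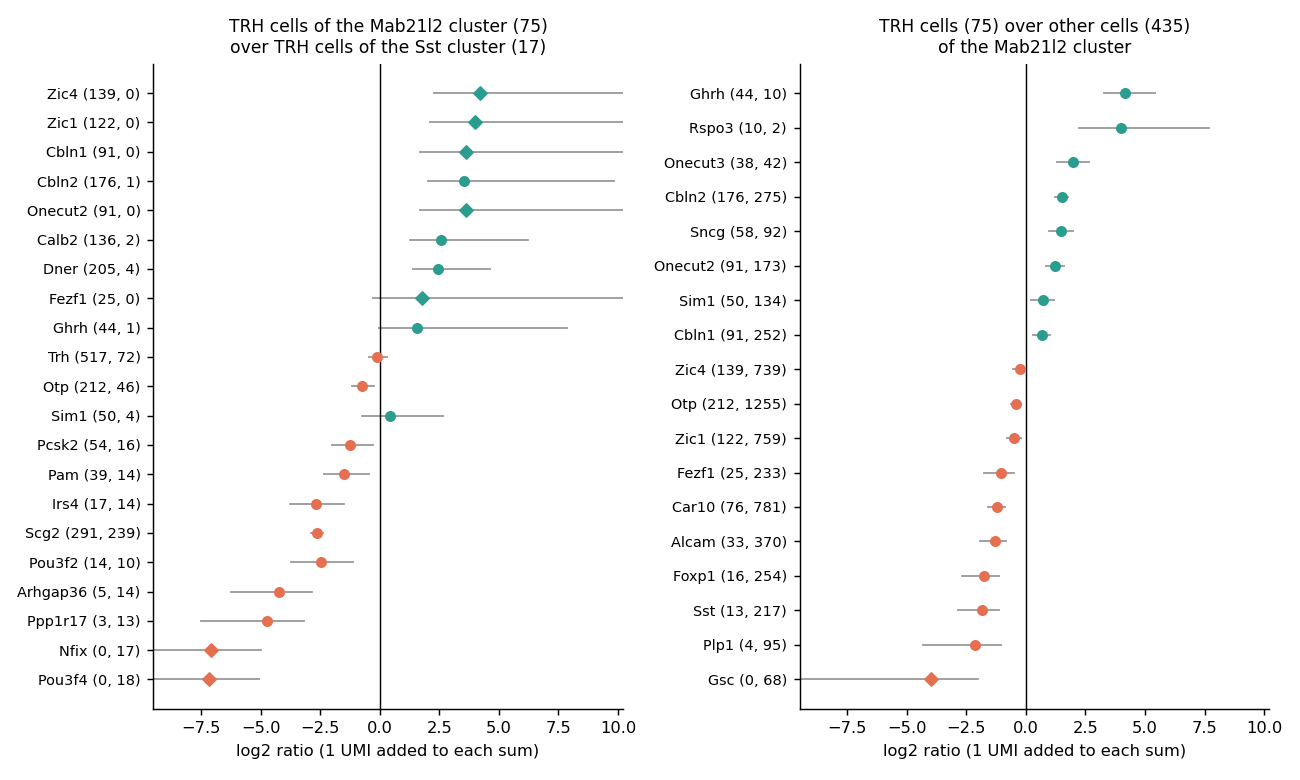
Log2 ratios (horizontal, 1 UMI added to each sum, exact 95% intervals for counting error; lines that reach the edge have no bound) with the UMIs of each side in brackets; diamonds mark genes with 0 UMIs on 1 side. Left, 75 TRH cells of the Mab21l2 cluster over 17 TRH cells of the Sst cluster: Zic4, Zic1, Cbln1 and Onecut2 lie right and Pou3f4, Nfix and Scg2 lie left, with Trh near 0. Right, the same 75 TRH cells over 435 other cells of their cluster: Ghrh and Cbln2 lie right, Car10 and Gsc left.

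Several genes that stood higher in TRH cells had no UMI in the TRH cells of the Sst cluster. These contrasts use genes that also formed the clusters, so they describe the split and test nothing. Zic4 gave 139 UMIs in the 75 TRH cells of the Mab21l2 cluster and 0 in the 17 of the Sst cluster, at least 6.11-fold higher. Zic1 gave 122 and 0, at least 5.37-fold higher, and Cbln1 gave 91 and 0, at least 4.00-fold higher. Onecut2, a cut-homeodomain factor, also gave 91 and 0. Cbln2 gave 176 and 1, log2 3.55 (2.04 to 9.85), and Calb2, the calcium buffer calretinin, gave 136 and 2, log2 2.59 (1.28 to 6.23).

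TRH cells of the Sst cluster carried another set. Pou3f4, a POU factor, gave 18 UMIs in 8 of these 17 cells and 0 in the 75 of the Mab21l2 cluster, at least 45.5-fold lower in the latter. Nfix, a nuclear factor I gene, gave 17 and 0, at least 42.9-fold. Scg2 gave 239 UMIs in all 17 cells (5988 CPM) and 291 in 59 of the 75 (962 CPM), log2 -2.64 (-2.89 to -2.39). Pou3f2 gave 10 UMIs in the 17 cells and 14 in the 75 (-2.47). Some genes were higher in the 17 cells of both libraries by unequal amounts. Nr3c1 stood at 101 against 57.7 CPM in the control, from 3 UMIs in the Sst cluster, and at 878 against 54.6 in the heterozygous library. Irs4 stood at 303 against 64.1 CPM and 488 against 47.8, and Nell2 at 1416 against 231 and 1269 against 437. The processing enzymes Pcsk2 (16 and 54 UMIs, -1.23) and Pam (14 and 39, -1.51) were higher per UMI there too. The processing enzymes Cpe (23 and 205 UMIs, 0.18, -0.39 to 0.92) and Qpct (3 and 37, 0.33, -0.96 to 3.04) were not. Median depth was 2293 UMIs in the 17 cells and 3293 in the 75.

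Trh, which the rule required of all these cells, stood at 1709 CPM in the Mab21l2 cluster's TRH cells and 1804 in those of the Sst cluster. Otp was detected in 63 of the 75 and 14 of the 17, and its order turned between the libraries: 673 against 1348 CPM in the control and 730.3 against 586 in the heterozygous library, the last from 6 UMIs. Sim1 rested on 4 UMIs in the Sst cluster and also turned, at 199 against 33.7 CPM in the control and 129.7 against 293 in the heterozygous library. Slc17a6 stood at 596 against 236 CPM in the control and 709.9 against 488 in the heterozygous library, the Sst cluster's values from 7 and 5 UMIs. Ghrh gave 44 UMIs and 1. Despite its name, the Sst cluster's TRH cells held no Sst UMI, whereas 3 TRH cells of the Mab21l2 cluster held 13.

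Within the Mab21l2 cluster, most of the marker genes above did not separate TRH cells from their 435 neighbours. Otp gave a log2 ratio of -0.42 (-0.64 to -0.22), Zic1 -0.49, Zic4 -0.26 and Fezf1 -1.03 (-1.74 to -0.48), all lower in the TRH cells. Of 1170 genes tested within the cluster, Cbln2 was the 1 gene at least 2-fold higher in both libraries (log2 1.53 and 1.48) and Car10 the 1 gene at least 2-fold lower (-1.29 and -1.21). Cbln1 gave 0.68 (0.31 to 1.02) and Sim1 0.73 (0.22 to 1.19) over both libraries.

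Further genes are named for their ratios within that cluster in these same UMIs, so the values describe the picked genes only. Beside Ghrh, with log2 4.17 (3.26 to 5.43), Onecut3 gave 38 UMIs in TRH cells and 42 in the 435 others (2.0). Sncg, gamma-synuclein, stood higher in TRH cells of the control library only, at 282 against 57.5 CPM, and at 95.6 against 95.3 in the heterozygous library. Rspo3, a Wnt enhancer, gave 10 UMIs and 2 (4.01, 2.23 to 7.69). On the lower side Gsc, a homeodomain factor, gave 0 UMIs in TRH cells and 68 in the others, at least 5.15-fold lower. Foxp1, a forkhead factor, stood at 83.3 against 174 CPM in the control and 20.5 against 229.7 in the heterozygous library, whose TRH cells gave 3 UMIs. Alcam, a cell adhesion molecule, stood at 76.9 against 282 CPM and 143 against 269. Sst turned between the libraries: 70.5 against 53.1 CPM in the control, from 11 UMIs of a single cell, and 13.7 against 411 in the heterozygous library.

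Between the libraries, 2971 genes with at least 30 UMIs over the TRH cells of both were compared. In heterozygous TRH cells 320 genes (10.8%) were at least 1.5-fold higher and 273 (9.19%) at least 1.5-fold lower than in control TRH cells. Over the other cells the same genes gave 58 (1.95%) in each direction. The sums behind these shares differ in size, at 210605 and 187872 UMIs for TRH cells and 6314099 and 5202484 for the other cells, and the part of the gap that counting error takes was not tested. Of the 320 higher genes 26 (8.12%) were also at least 1.5-fold higher in other cells, and of the 273 lower genes 33 (12.1%) were also lower there.

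Trh was lower in the heterozygous TRH cells, 236 UMIs against 425, log2 -0.68 (-0.92 to -0.45), and 0.07 in other cells. The rule sets a floor on this gene in both libraries, so the value describes the chosen cells. Without the cells of 10 or more Trh UMIs the remaining 58 control and 42 heterozygous TRH cells held 195 and 159 Trh UMIs (1182 and 989.5 CPM), log2 -0.25 (-0.57 to 0.05). TRH cells made up 2.39% of control cells (1.86% to 3.02%) and 1.87% of heterozygous cells (1.38% to 2.49%), shares whose intervals overlap. Fewer Trh molecules per cell and fewer cells above the limit cannot be told apart from these shares.

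Otp gave a log2 ratio of -0.14 (-0.48 to 0.20) between heterozygous and control TRH cells and -0.70 in other cells. Zic1 gave 0.40 (-0.11 to 0.92) and -0.85, Zic4 gave 0.09 and -0.98, and Fezf1 gave -0.22 and -0.92. In other cells these 4 genes were lower in the heterozygous library. The Mab21l2 cluster was also a smaller share of all kept cells there (6.07% against 12.9%), and its part in these ratios was not tested. Among the other cells of that cluster Otp stood at 969.6 CPM in the control and 882 in the heterozygous library, Zic1 at 549.9 and 616, Zic4 at 559 and 547, and Fezf1 at 187 and 149. Cbln1 gave -0.52 (-1.16 to 0.08) and -0.49, Cbln2 gave 0.05 and 0.29, and Car10 gave 0.62 (0.01 to 1.27) and -0.30.

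**Figure D5:**
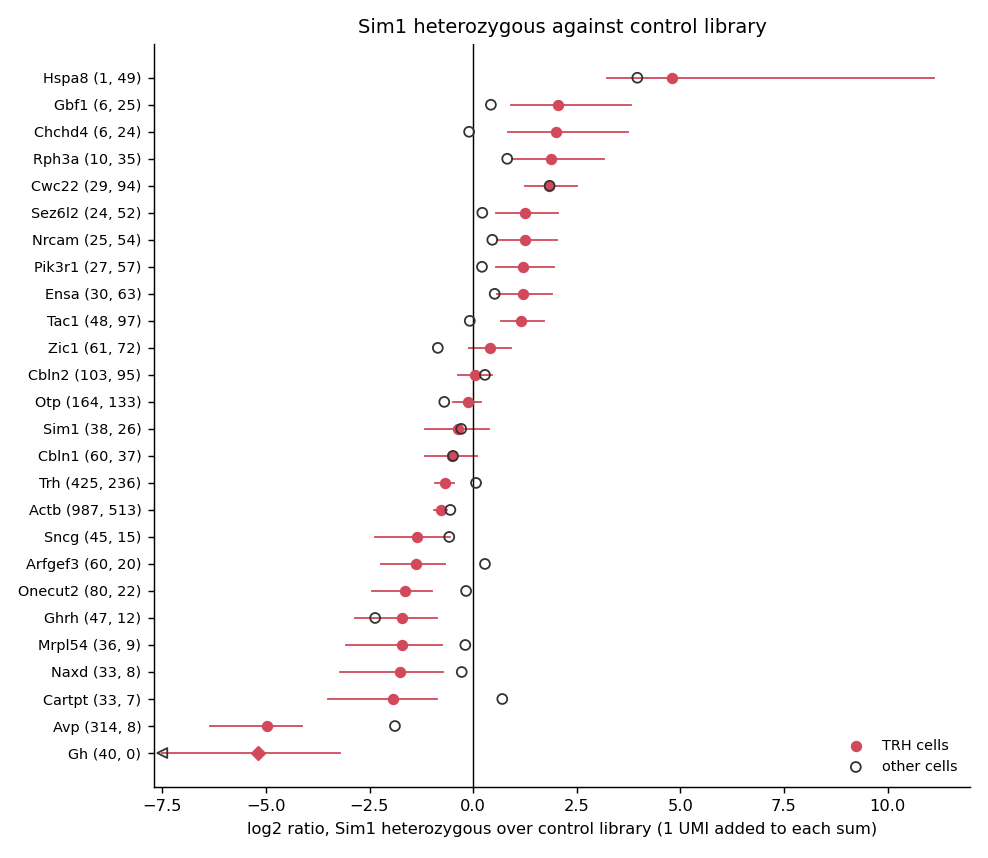
Log2 ratio of the heterozygous over the control library (horizontal, 1 UMI added to each sum) for TRH cells (filled, exact 95% intervals for counting error) and other cells (open circles), with control and heterozygous TRH UMIs in brackets; the diamond marks 0 UMIs in the heterozygous library and the open triangle a value beyond the axis. Hspa8 and Cwc22 are high in both kinds of cell, while Onecut2, Cartpt and Arfgef3 lie left of 0 in TRH cells and near or right of 0 in other cells.

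Several of the largest differences between the libraries were present in other cells too. Hspa8, a constitutive heat shock protein, went from 1 UMI in control to 49 in heterozygous TRH cells, log2 4.81 (3.23 to 11.11), and gave 3.96 in other cells. Cwc22, a splicing factor, went from 29 to 94, log2 1.83 (1.25 to 2.52), and gave 1.85 in other cells. Gh went from 40 UMIs to 0, at least 11.9-fold lower in TRH cells and at least 595-fold lower in other cells. Actb, cytoplasmic actin, went from 987 to 513 UMIs, log2 -0.78 (-0.94 to -0.62), and gave -0.55 in other cells. Avp went from 314 to 8, log2 -4.96, with 292 of the control UMIs in the single cell described above, and log2 -1.22 without that cell.

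Other genes stood higher in heterozygous TRH cells with smaller ratios in other cells. Tac1 gave log2 1.16 (0.67 to 1.71) against -0.08 in other cells, and rests on the few cells named above. Rph3a, a synaptic vesicle protein, went from 10 to 35 UMIs (1.88, against 0.82 in other cells). Gbf1, a Golgi exchange factor, went from 6 to 25 (2.06, against 0.43), and Chchd4, a mitochondrial import protein, from 6 to 24 (2.0, against -0.10). Ensa, Nrcam, Pik3r1 and Sez6l2 gave 1.21 to 1.25 in TRH cells and 0.21 to 0.52 in other cells.

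On the lower side the differences included Onecut2, Ghrh, Sncg and Cartpt. None of them is among the 36 genes at least 2-fold higher in TRH cells of both libraries. Onecut2 went from 80 UMIs in 25 control cells to 22 in 11 heterozygous cells, log2 -1.65 (-2.45 to -1.0), against -0.17 in other cells. Within the Mab21l2 cluster alone its TRH cells held 73 UMIs in 22 of 46 control cells and 18 in 10 of 29 heterozygous cells. These were 468 and 123 CPM. The other cells of that cluster were lower in the heterozygous library too, at 161 CPM in the control (148 UMIs) and 61.1 (25 UMIs). Ghrh went from 47 to 12 UMIs, log2 -1.72 (-2.86 to -0.87), against -2.36 in other cells. Sncg went from 45 to 15, log2 -1.36, against -0.58. Cartpt went from 33 to 7, log2 -1.92, against 0.70 in other cells. The other cells of the Mab21l2 cluster held 36 Cartpt UMIs in 22 of 315 control cells and 5 in 5 of 120 heterozygous cells.

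Other named genes were lower in heterozygous TRH cells too. Mrpl54, a mitochondrial ribosomal protein, went from 36 to 9 UMIs (-1.72, against -0.19 in other cells). Naxd, a metabolite repair enzyme that overlaps Cars2 on the opposite strand, went from 33 to 8 (-1.75, against -0.28). Arfgef3 went from 60 to 20 (-1.37, against 0.29).

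By list, 3 of 13 tested processing genes were at least 1.5-fold higher in heterozygous TRH cells and none lower, beside 10.8% and 9.19% of all genes. They were Cpe, the carboxypeptidase that trims prohormones (114 to 159 UMIs, log2 0.64, 0.29 to 1.00), Chga, chromogranin A (71 to 111, 0.80), and Qpct (20 to 28, 0.63). The list's median was 0.11 in TRH cells and 0.22 in other cells, beside 0.03 and 0.01 for all genes. Of 2 tested thyroid axis genes, Ncor1, the corepressor of thyroid hormone receptors, went from 73 to 43 UMIs (-0.59) and Thra from 88 to 102 (0.38). None of 4 tested TRH signalling genes passed 1.5-fold.

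The study's title concerns Irx3 and Irx5, which encode Iroquois homeodomain factors. No Irx3 or Irx5 UMI was found in TRH cells of either library. In other cells Irx3 gave 20 control and 18 heterozygous UMIs, and Irx5 gave 10 and 9. A count of 0 here is a limit of detection: it allows up to 14.2 CPM in control and 16.0 CPM in heterozygous TRH cells, above the level of Irx3 in other cells (3.17 and 3.46 CPM).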

How the data were processed

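The files hold raw UMI counts per gene and cell, 1 table per library and a merged table with the same values, as deposited by the authors. The submitters' processing notes name bcl2fastq, Picard, STAR 2.6.0b, Seurat 3 and the mouse build mm10; whether reads were counted by strand is not stated there. Cells with at least 300 genes were kept (23 barcodes were left out), and no doublet caller was run: leaving out the deepest 5% of cells was tried instead. No column was left without a sample. UMIs were summed over the cells of each library, and genes with at least 100 UMIs in each library (30 over TRH cells between libraries) were compared as log2 ratios with 1 UMI added. Intervals at 95% were exact binomial for ratios and shares and exact Poisson for levels, and with no replicates no test was made. A sum of 0 was bounded with 3 UMIs. Clusters came from the Leiden method without Trh and Crh (Python 3.11.15, scipy 1.17.1, scikit-learn 1.9.0, leidenalg 0.10.2). The interval script was tested on simulated data. Named genes are the 20 higher and 10 lower, and 10 each way between libraries, whose interval bound nearest to 0 lay farthest from 0, with Trh, Crh, mitochondrial, ribosomal protein, haemoglobin, Xist, Tsix, Y-linked and clone-named genes set aside, plus up to 4 members of each list by UMIs or interval; a few that these rules name are not reported here. The members and the gene lists were chosen with earlier results of these data known. Of 24905 genes, 23481 (94.3%) matched a GENCODE M21 name.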

Additional observations from a re-analysis of the deposited data

Results flagged for a closer look

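Chchd4, a mitochondrial import gene, gave a log2 ratio of TRH over other cells of -1.11 in the control and 0.99 in the heterozygous library, from 6 and 24 UMIs. It is listed because the ratio has opposite signs in the 2 libraries, and that difference was not tested. Arfgef3 gave 0.98 in the control and -0.68 in the heterozygous library, also of opposite sign and not tested. Rorb, an orphan nuclear receptor, gave 0.60 (-1.08 to 1.55) and -0.85 (-3.54 to 0.32) from 6 and 3 UMIs. Cacna1g, a T-type calcium channel subunit, gave 0.81 (-0.72 to 1.71) and -1.58 (-7.89 to -0.08) from 7 and 1 UMIs. Neither of these opposite signs was tested. Cartpt gave a heterozygous over control ratio of -1.92 in TRH cells and 0.70 in all other cells together, of opposite sign and not tested. The other cells of the Mab21l2 cluster held 36 Cartpt UMIs in 22 of 315 control cells and 5 in 5 of 120 heterozygous cells. A cluster led by Cpne9 held 112 UMIs in 38 of 42 control cells and 498 in 182 of 257 heterozygous cells. Its part in the ratio of other cells was not tested. Of the 33 control Cartpt UMIs, no more than 6 came from a single TRH cell.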

How the results depend on the processing

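No paired analysis was possible because each genotype is 1 library and the labels give no shared replicate numbers. The limits are the small number of TRH cells, sums of few UMIs and the choice of 2 Trh UMIs. Of the values of single genes in TRH against other cells under the alternatives, 890 moved by less than their interval, 75 moved further and 22 turned in sign. Of such values between the libraries, 331 moved by less than their interval and 20 moved further. The alternatives that compare only cells of the Mab21l2 cluster, leave out the Avp-rich control cell or the cells of 10 or more Trh UMIs, or change the clustering were chosen after seeing the data. The causes of these shifts were not tested except where a minimum or fold sets a count by construction. The 36 genes at least 2-fold higher in both libraries became 74 with at least 3 Trh UMIs (25 of the 36 among them), 13 with at least 1 (12 shared) and 59 where each cell weighs the same (22 shared). They became 249 of 11278 tested genes with a minimum 3 times lower and 9 of 3760 with one 3 times higher. They became 311 of 7603 at 1.5-fold and 1 of 1170 within the Mab21l2 cluster. The 99 lower genes became 53 of 7603 with at least 1 Trh UMI, 32 of 3659 after thinning and 41 of 3760 with the higher minimum. They became 275 of 7603 at 1.5-fold and 1 of 1170 within the Mab21l2 cluster. Between the libraries the number of genes compared changed too. The 320 higher genes of 2971 became 493 of 4981 with at least 1 Trh UMI (123 shared) and 78 of 672 after thinning (19 shared). They became 1197 of 6756 and 41 of 882 with the lower and higher minimum, and 88 of 2971 at 2-fold. The 273 lower genes of 2971 became 62 of 672 after thinning (10 shared). They became 1068 of 6756 and 27 of 882 with the lower and higher minimum, and 70 of 2971 at 2-fold. TRH cells were 1.53% of control and 1.34% of heterozygous cells with at least 3 Trh UMIs, and 4.99% and 4.40% with at least 1. Among cells of at least 1000 UMIs, the ones that could be thinned, they were 44 of 1704 heterozygous cells (2.58%). In the control library 65 TRH cells stood beside 2377 other cells there. The rule was applied to the Trh counts before thinning. The best cluster at resolution 2 held 44.2% of TRH cells. Signs turned as follows, as log2 ratios of TRH over other cells. Without glia-like cells Apoe gave 0.21 and Fabp7 0.86 in the control, and Fabp7 0.020 in the heterozygous library. These rest on 1, 2 and 1 UMIs in TRH cells, so the 1 UMI added to each sum weighs on their sign. After thinning Lmo3 gave -0.26 in the control. Within the Mab21l2 cluster, in the control library, Otp gave -0.51, Zic1 -0.62, Zic4 -0.36, Fezf1 -0.96, Avp 0.094, Oxt 0.56 and Fabp7 0.56. In the heterozygous library there, Otp gave -0.26, Zic1 -0.41, Zic4 -0.14, Fezf1 -0.89, Irs4 -0.33, Gabrg3 -0.042, Avp 0.20, Foxb1 0.40, Lhx1 0.22, Lhx1os 0.67 and Pmch 0.067. Of these, Avp, Oxt, Fabp7, Foxb1, Lhx1, Lhx1os and Pmch rest on few UMIs in TRH cells of that cluster.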

Other observations

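The 22 imprinted genes examined summed to 6472 UMIs in control and 5410 in heterozygous TRH cells. Meg3, a long non-coding RNA, gave 2267 UMIs in control and 1954 in heterozygous TRH cells, and Ndn, necdin, gave 463 and 352 (log2 over other cells 0.33 and 0.51). Of 18 tested imprinted genes none was at least 2-fold higher in both libraries, and Cdkn1c, a cell-cycle inhibitor, was lower (8 and 5 UMIs), beside 1.3% of all genes lower in both. The list's medians were 0.26 and 0.41, beside 0.09 for all genes. Between the libraries, 4 of 15 tested imprinted genes were at least 1.5-fold higher in heterozygous TRH cells and none lower. They were Zdbf2 (60 and 82 UMIs), Impact (34 and 62), Nap1l5 (374 and 523) and Usp29 (27 and 53). Of all tested genes 10.8% were this much higher and 9.19% this much lower.

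Axon guidance genes gave medians of -0.54 and -0.40 in TRH over other cells, beside 0.09 for all genes. Of 26 tested, 3 were at least 2-fold lower in both libraries, beside 1.3% of all genes: the semaphorin receptor Nrp1 (28 and 28 UMIs, log2 -1.04 and -1.17) and the ephrin receptors Epha4 (8 and 8 UMIs) and Ephb1 (4 and 10 UMIs). None was higher in both. Of 23 tested ion channel genes, Trpc5 alone was higher in both libraries (22 and 10 UMIs), beside 0.473% of all genes. Fos, an immediate early gene, gave 12 and 20 UMIs in TRH cells, with log2 ratios over other cells of 0.93 and 1.25.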
